A study of Emiliania huxleyi CCMP1516 with 36 samples.

Results

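The genes described here are the 200 identifiers of Emiliania huxleyi whose RNA stood lowest under 2-heptyl-4-quinolone (HHQ) at 100 ng/ml, relative to the vehicle, at both 24 and 72 h. They were selected on these measured ratios. The source was 36434 identifiers without a symbol, in a table of 37212 genes. Estimated counts were turned into CPM (a gene's counts scaled to a common library total), group means were raised by 0.5, and the log2 ratio of HHQ 100 to vehicle was formed at each time. The larger, less negative of both ratios was the score, and the 200 lowest scores were kept, so a gene had to be low at both times to enter. None of the 200 has a symbol in the count table or in the RefSeq gene table of the species, so no function is given for any of them and each is named by its identifier.

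E. huxleyi is a unicellular marine haptophyte alga that covers itself with calcite scales and forms large ocean blooms. HHQ is an alkylquinolone that marine Pseudoalteromonas and Pseudomonas bacteria release. In Pseudomonas it serves as a quorum-sensing signal and as the precursor of another quinolone signal. It is known to slow or stop the growth of E. huxleyi. Haptophytes harvest light with fucoxanthin-chlorophyll proteins, the family whose symbols begin with Lhcf, and the values of those named genes are set beside the members below.

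RNA was sequenced from axenic bottle cultures of strain CCMP2090, 4 replicate cultures in each of 9 groups and 36 libraries in all. The groups were the parent cultures at time 0 that served as inoculum, with no treatment, and cultures at 24 and 72 h with the vehicle, dimethyl sulfoxide at 0.002%, or with HHQ at 1, 10 or 100 ng/ml in the same final share of vehicle (HHQ 1, HHQ 10 and HHQ 100). The parent cultures are the only group without dimethyl sulfoxide, the only one at time 0 and the only one before the inoculation. The solvent, the time and the transfer to new cultures therefore cannot be told apart against them. Where HHQ 1 cultures are compared with them, HHQ at 1 ng/ml is a further difference. The organism field of the labels names CCMP1516, the strain of the reference genome. In bulk RNA from a culture, fewer cells that express a gene and less RNA per cell cannot be told apart. Library totals ran from 5679128 to 42602884 estimated counts, and 26494 genes, including 199 of the 200 members, had enough counts to be tested. EMIHUDRAFT_372913 did not. Levels below are CPM scaled by trimmed mean of M values (TMM), and they are not per transcript length, so they are compared between libraries and not between genes.

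The selection used the 16 libraries of HHQ 100 and vehicle, and the values in them are a description only. Scores ran from -4.05 through a median of -1.84 to -1.39 on the log2 scale. The ratio at 24 h set the score for 93 members and the ratio at 72 h for 107. Just inside the limit stood EMIHUDRAFT_435847 at -1.387 and EMIHUDRAFT_354052 at -1.3859, and just outside it EMIHUDRAFT_368290 at -1.3855 and EMIHUDRAFT_207452 at -1.3853, so nothing separates the last members from the next genes. In the fit over all genes the median log2 fold change of the 199 tested members, HHQ 100 over vehicle, was -3.52 at 24 h and -3.48 at 72 h. At 24 h 195 of the 199 were called lower (adjusted p under 0.05, edgeR), in a comparison where 19.5% of all tested genes were. At 72 h 196 were called, against 23.6% of all tested genes. These counts follow from the selection. The median over members of the mean level was 1.06 CPM under HHQ 100 and 16.5 CPM with vehicle at 24 h, and 1.84 and 26.3 CPM at 72 h. Under HHQ 100, 99 members averaged below 1 CPM at 24 h and 71 at 72 h, while 1 and 0 did so with vehicle.

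Members with the lowest scores kept different levels under HHQ 100. EMIHUDRAFT_227293 had 0, 0, 0.333 and 0 CPM under HHQ 100 at 24 h, against 7.78, 4.81, 11.3 and 17.2 CPM with vehicle. EMIHUDRAFT_450617 had 0.0615, 0.127, 0.272 and 0.536 CPM under HHQ 100 at 24 h, against 13.2, 9.55, 9.72 and 28.1 CPM with vehicle. EMIHUDRAFT_439758, with the lowest score of all, kept 3.6, 2.07, 2.68 and 4.05 CPM under HHQ 100 at 24 h, where vehicle cultures had 91.8, 38.5, 170 and 92.1 CPM. In none of these 3 members did the groups overlap, and only the first pair stayed under 1 CPM in every HHQ 100 library of 24 h. EMIHUDRAFT_309573 and EMIHUDRAFT_442587, which also have scores among the 6 lowest, averaged 4.75 and 2.88 CPM under HHQ 100 at 24 h, against 175 and 140 CPM with vehicle. At 72 h EMIHUDRAFT_309573 had 28.2, 35.1, 2.18 and 11.1 CPM under HHQ 100, against 301, 587, 680 and 674 CPM with vehicle. EMIHUDRAFT_439758 had 10.5, 14.3, 0.466 and 3.11 CPM under HHQ 100 at 72 h, with the same replicates high and low.

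The members differed widely in how many counts they drew. EMIHUDRAFT_370423 alone took about as many counts as all the others together. It had 1944, 1923, 2505 and 2398 CPM under HHQ 100 at 24 h, against 16438, 17672, 15500 and 26411 CPM with vehicle. The next by counts were EMIHUDRAFT_440685, EMIHUDRAFT_434878, EMIHUDRAFT_438766, EMIHUDRAFT_417816 and EMIHUDRAFT_460675. Among all 200 members' values 69.4% were not whole numbers, against 45.8% in the whole table. Such values arise where the quantification divides reads among transcripts. EMIHUDRAFT_370423, EMIHUDRAFT_434878, EMIHUDRAFT_438766 and EMIHUDRAFT_460675 were not whole in any of the 36 libraries, so their own levels are uncertain where similar transcripts exist. EMIHUDRAFT_440685 and EMIHUDRAFT_417816 were among the 39 members with whole values in all 36.

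Together the 200 genes held a small but steady share of all counts outside HHQ 100 and outside HHQ 10 at 24 h. The parent cultures gave 3.49% ± 0.093. At 24 h the share was 3.29% ± 0.16 with vehicle, 3.47% ± 0.21 under HHQ 1, 2.06% ± 0.21 under HHQ 10 and 0.728% ± 0.113 under HHQ 100 (SD, n = 4 each). At 72 h it was 3.6% ± 0.20 with vehicle, 3.56% ± 0.22 under HHQ 1, 3.14% ± 0.19 under HHQ 10 and 0.818% ± 0.125 under HHQ 100. The 4 HHQ 10 libraries of 24 h, at 1.96%, 1.84%, 2.11% and 2.34%, lay below all 4 HHQ 1 libraries, at 3.18%, 3.62%, 3.46% and 3.63%. At 72 h the libraries of HHQ 10, at 2.92% to 3.35%, overlapped in range those of HHQ 1, at 3.24% to 3.73%, but HHQ 10 was the lower in 4 of 4 pairs of the same replicate number, by 0.321 to 0.509 percentage points. Without EMIHUDRAFT_370423 the share was less steady. It was 1.62% ± 0.29 in the parent cultures and, with vehicle, 1.52% ± 0.21 at 24 h and 2.05% ± 0.14 at 72 h. The share without this gene still had a lower mean under HHQ 10 than under HHQ 1 at both times. It was 1.10% ± 0.17 under HHQ 10 and 1.81% ± 0.23 under HHQ 1 at 24 h, and 1.77% ± 0.16 and 1.98% ± 0.11 at 72 h, where HHQ 10 was again the lower in 4 of 4 pairs.

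**Figure D1:**
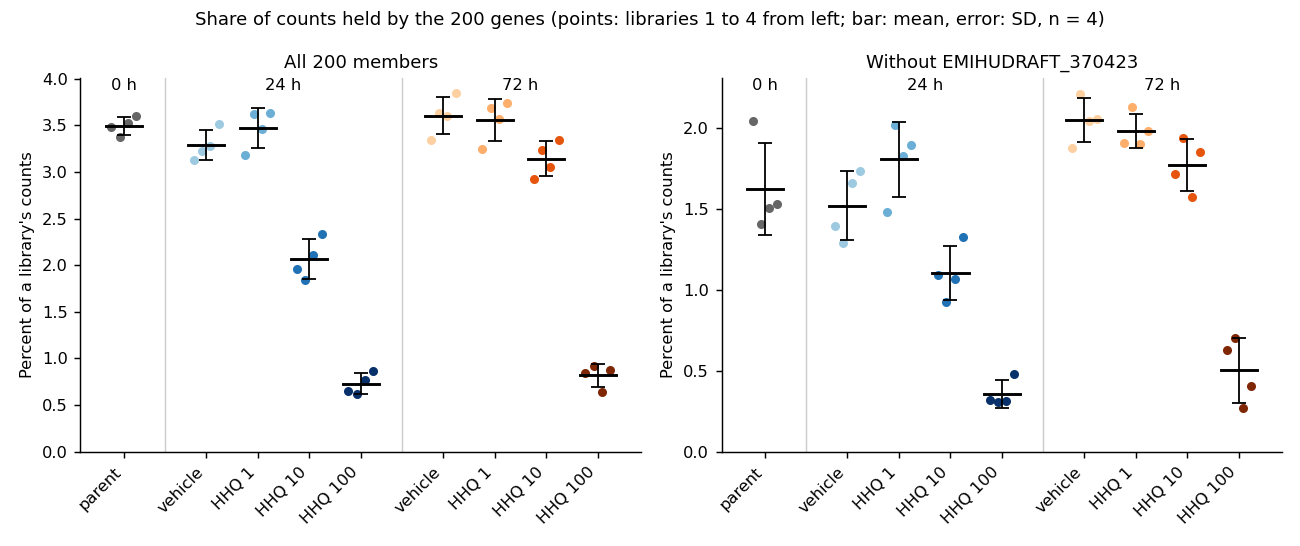
Percent of each library's estimated counts that fell on the 200 members (left) and on all but EMIHUDRAFT_370423 (right), by group; points are libraries, bars the mean and error bars the SD of 4. At 24 h the HHQ 10 libraries lie between those of HHQ 1 and HHQ 100, and at 72 h their range overlaps that of HHQ 1.

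The 20 libraries of HHQ 1, HHQ 10 and the parent cultures took no part in the selection, and comparisons among them could therefore be tested. The question for the lower doses was whether the same genes were lower at a dose 10 times below that of the selection. At 24 h 119 of the 199 tested members were lower under HHQ 10 than under HHQ 1, and 2 were higher (adjusted p under 0.05 over all 26494 genes, edgeR). Of all tested genes 11% were lower and 14.4% higher. The members' median log2 fold change was -1.69, a 3.22-fold lower level, where the median of all genes was 0.09. Of the 199 members 179 had a fold change below 0. In 105 members all 4 HHQ 10 libraries lay below all 4 HHQ 1 libraries, which was so for 9.22% of all tested genes, and in 3 members all lay above, against 14.4%. The members called lower ran from -3.88 to -0.70 with a median of -2.03. The 38 tested members whose counts were whole in every library gave 22 lower and 0 higher, with a median of -1.60. The other 161 gave 97 lower and 2 higher, with a median of -1.74. Scaled by library totals in place of TMM, 80 members were lower and 3 higher and their median was -1.02, where the median of all genes was 0.74 and 2.99% of them were lower and 29.7% higher.

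**Figure D2:**
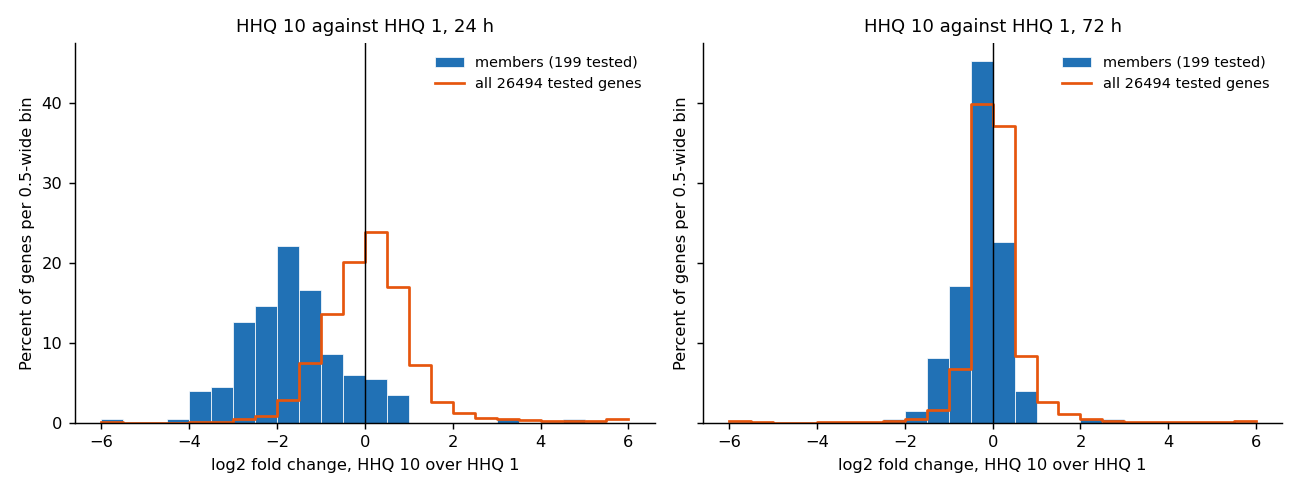
Percent of the 199 tested members (filled bars) and of all 26494 tested genes (line) in each 0.5-wide bin of log2 fold change, HHQ 10 over HHQ 1, at 24 h (left) and 72 h (right); values beyond 6 in size are placed in the outermost bins. The medians of members and of all genes are -1.69 and 0.09 at 24 h, and -0.25 and 0.01 at 72 h.

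EMIHUDRAFT_370423 had 7112, 7439, 8193 and 10885 CPM under HHQ 10 at 24 h, against 16319, 26642, 22714 and 29004 CPM under HHQ 1. Each HHQ 10 library was below each HHQ 1 library, and the log2 fold change was -1.49 ± 0.24 (SE, adjusted p = 3.7e-05, edgeR). EMIHUDRAFT_417816, one of the members with whole counts, had 336, 359, 521 and 640 CPM under HHQ 10 and 796, 1309, 1276 and 1653 CPM under HHQ 1, without overlap. Its log2 fold change was -1.44 ± 0.26 (adjusted p = 0.00015, edgeR).

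EMIHUDRAFT_440685 had 1415, 1378, 1226 and 3111 CPM under HHQ 10 at 24 h, against 2553, 7607, 5368 and 7147 CPM under HHQ 1. Replicate 4 of HHQ 10 lay above replicate 1 of HHQ 1, and the log2 fold change was -1.67 ± 0.51 (adjusted p = 0.017, edgeR). EMIHUDRAFT_434878 (-1.94), EMIHUDRAFT_438766 (-2.02) and EMIHUDRAFT_435847 (-1.63) had their highest library in common with it under both doses, replicate 4 of HHQ 10 and replicate 2 of HHQ 1. EMIHUDRAFT_434878 and EMIHUDRAFT_438766 were called, and EMIHUDRAFT_435847 was not, with an adjusted p of 0.054 (edgeR). Leaving out any of replicates 1, 2 and 3 of HHQ 10, among others, ended the calls of EMIHUDRAFT_440685, EMIHUDRAFT_434878 and EMIHUDRAFT_438766.

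Among the members of lowest score, EMIHUDRAFT_227293 had 0.972, 0.539, 1.13 and 3.92 CPM under HHQ 10 at 24 h, against 10.1, 25, 17.3 and 28.4 CPM under HHQ 1 (log2 fold change -3.69 ± 0.68, adjusted p = 0.00018, edgeR). EMIHUDRAFT_450617 had 1.85, 1.41, 1.37 and 7.78 CPM against 16.9, 57.7, 37.3 and 34.7 CPM (-3.63 ± 0.93, adjusted p = 0.0052, edgeR). In both members the groups did not overlap. EMIHUDRAFT_439758 had a log2 fold change of -1.65 ± 0.65 that missed the threshold (adjusted p = 0.057, edgeR).

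The most negative fitted fold changes included thinly counted genes. EMIHUDRAFT_209227 had 0 counts over the 4 HHQ 10 libraries at 24 h, against 49 over those of HHQ 1, all in replicate 2, and was not called (adjusted p = 0.15, edgeR). EMIHUDRAFT_446809, at -4.12 ± 2.10, was not called either (adjusted p = 0.14, edgeR). EMIHUDRAFT_459378 had 0.473, 0.201, 0.352 and 1.13 CPM under HHQ 10 at 24 h, against 4.35, 13.2, 7.23 and 5.18 CPM under HHQ 1 (-3.88 ± 0.92, adjusted p = 0.0028, edgeR). EMIHUDRAFT_446351 and EMIHUDRAFT_370912 were also called, with log2 fold changes of -3.87 and -3.81. In these 3 members the groups did not overlap.

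A few members did not follow the others at 10 ng/ml. EMIHUDRAFT_437576 had 0 counts in every parent library and little in most other groups, but 56.6, 59.0, 44.8 and 58.8 CPM under HHQ 10 at 24 h, against 2.52, 1.88, 1.23 and 2.61 CPM under HHQ 1. It was higher by a log2 fold change of 4.74 ± 0.46 (adjusted p = 9.1e-09, edgeR). Under HHQ 100 at 24 h it had 0.376, 0.162, 0 and 0.0736 CPM, against 1.93, 1.13, 1.10 and 3.05 CPM with vehicle. Among the groups of 24 h its level was highest at the middle dose. Its low level under HHQ 100 relative to vehicle follows from the selection. EMIHUDRAFT_448806 had 1079, 1067, 1004 and 1174 CPM under HHQ 10 at 24 h, against 407, 961, 570 and 557 CPM under HHQ 1, without overlap (0.79 ± 0.25, adjusted p = 0.022, edgeR). Leaving out HHQ 10 replicate 1, or HHQ 1 replicate 1, 3 or 4, ended that call. EMIHUDRAFT_460675 had 1219, 1122, 1097 and 1295 CPM against 546, 1016, 736 and 739 CPM, also without overlap, but missed the threshold (0.64 ± 0.25, adjusted p = 0.057, edgeR). Under HHQ 100 at 24 h these genes averaged 72.5 and 108 CPM. Both had values that were not whole in all 36 libraries, so reads may be shared with similar transcripts. EMIHUDRAFT_444611 rests on 3 counts under HHQ 1 at 24 h, and EMIHUDRAFT_439944 (0.92 ± 0.55) and EMIHUDRAFT_437539 (0.88 ± 0.97) were not called.

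Libraries within a group were not alike in their whole profiles, and many members varied with that difference. The leading component of the within-group deviations held 25.9% of their variance. At 24 h it set replicate 4 apart in the vehicle, HHQ 10 and HHQ 100 groups, but replicates 2 and 4 in HHQ 1, and at 72 h it set replicates 1 and 2 apart from 3 and 4 in all groups. A total of 102 of the 199 members, or 51.3%, had a correlation under -0.5 with it over the 36 libraries, against 22.1% of all tested genes. For HHQ 10 against HHQ 1 at 24 h these 102 had a median log2 fold change of -2.17 and 84 were lower, where 32.8% of all genes in the same range of correlation were. The 83 members with a correlation from -0.5 to 0.5 had a median of -1.21 and 35 were lower, or 42.2% against 6.58% of all genes in that range. The 14 members above 0.5 had a median of 0.19 and 0 were called either way. Of the 7011 tested genes in that range 1.34% were lower and 1615 were higher, with a median of 0.46. The count of lower members at 24 h was 75, 67 and 74 without HHQ 10 replicates 1, 2 and 3, and 76 without HHQ 1 replicate 2. Each of these fits had a library fewer, and its share of all genes called is not given here. The fall is therefore not read as a trait of the members. The part of the library difference in the fold changes was not tested. Within replicates 1 to 3 the median log2 ratio of the 200 members was -1.76, and within replicate 4, with 1 library per group, it was -1.31. These sets do not hold the component fixed. Replicate 2 of HHQ 1 lay on the same side of it as replicate 4 of HHQ 10, so nothing is drawn from them.

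Vehicle libraries were part of the selection, so the values of the lower doses against vehicle are given side by side and support nothing. At 24 h the members' median log2 fold change over vehicle was 0.51 for HHQ 1, with 0 members called either way and 0.0% of all genes, and 5 members at an unadjusted p under 0.05. It was -1.21 for HHQ 10, with 46 lower and 3 higher, where 4.37% and 7.39% of all genes were. It was -3.52 for HHQ 100. For HHQ 1 the medians were 0.94, -0.10 and -0.66 in the members with a correlation under -0.5, from -0.5 to 0.5 and above 0.5 with the library component. At 72 h the members' medians over vehicle were -0.09, -0.38 and -3.48 for HHQ 1, HHQ 10 and HHQ 100, and 0, 3 and 196 members were called lower. For HHQ 10 at 72 h 1 member was higher, and 0.276% of all genes were lower and 0.672% higher.

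At 72 h only 3 of the 199 members were lower under HHQ 10 than under HHQ 1 and 1 was higher (adjusted p under 0.05, edgeR), where 0.17% of all tested genes were lower and 0.483% higher. The members' median log2 fold change was -0.25, against 0.01 for all genes, and 144 of 199 were below 0. Same-numbered libraries were taken as pairs at this time from their correlations alone, since the labels do not say what the numbers share. With the replicate as a block 8 members were lower and 2 higher, with 0.728% and 0.929% of all genes. The 3 lower members were EMIHUDRAFT_433204, EMIHUDRAFT_457412 and EMIHUDRAFT_237923, all of them also lower at 24 h, and the higher one was again EMIHUDRAFT_437576. Without HHQ 1 replicate 2 only EMIHUDRAFT_433204 was still called lower. Scaled by library totals 1 member was lower and 3 higher, with 0.0264% and 0.23% of all genes.

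EMIHUDRAFT_433204 had 55.4, 56.1, 54.0 and 49.6 CPM under HHQ 10 at 72 h, against 169, 346, 177 and 230 CPM under HHQ 1. The groups did not overlap (log2 fold change -2.10 ± 0.35, adjusted p = 0.0011, edgeR). The same gene at 24 h had 3.15, 3.42, 5.32 and 4.31 CPM under HHQ 10 and 30.7, 32.5, 31 and 15.3 CPM under HHQ 1 (-2.75 ± 0.36, adjusted p = 1.6e-06, edgeR). EMIHUDRAFT_457412 had 142, 171, 168 and 193 CPM under HHQ 10 at 72 h, against 335, 732, 442 and 589 CPM under HHQ 1 (-1.64 ± 0.33, adjusted p = 0.0090, edgeR). At 24 h it had 13.3, 13.9, 33.1 and 17.3 CPM against 116, 109, 126 and 93.0 CPM (-2.51 ± 0.34, adjusted p = 2.4e-06, edgeR).

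EMIHUDRAFT_433204 and EMIHUDRAFT_457412 also moved alike with time. Under HHQ 1 both were higher at 72 h than at 24 h, by log2 fold changes of 3.07 ± 0.36 and 2.24 ± 0.34 (adjusted p = 1.5e-06 and 6.4e-05, edgeR). Both had values that were not whole in all 36 libraries. EMIHUDRAFT_237923 had 9.81, 12.1, 13 and 14.5 CPM under HHQ 10 at 72 h, against 23.8, 25.7, 23.5 and 26.8 CPM under HHQ 1 (-1.02 ± 0.24, adjusted p = 0.031, edgeR). That call held without HHQ 10 replicate 4 and ended without any other of the 8 libraries. Its levels at 24 h were close to these, at 8.84, 7.42, 12.7 and 9.14 CPM under HHQ 10 and 24.2, 20.1, 24.3 and 23 CPM under HHQ 1 (-1.26 ± 0.24, adjusted p = 0.00027, edgeR).

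The difference between the 2 times was tested itself, as the log2 fold change of HHQ 10 over HHQ 1 at 72 h minus that at 24 h. Its median over the members was 1.32, and 177 of 199 members were above 0, which means a higher ratio at 72 h. Only 5 members passed the test as higher at 72 h and 1 as lower (adjusted p under 0.05, edgeR), where 0.411% and 1.73% of all genes did. With the library component, which was taken from these same libraries, as a covariate 95 were higher and 1 lower, against 10.8% and 8.04% of all genes. Leaving out single libraries gave from 1 to 15 higher and from 0 to 1 lower, and the shares of all genes in those fits are not given here.

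The 5 were EMIHUDRAFT_453035, EMIHUDRAFT_217295, EMIHUDRAFT_370274, EMIHUDRAFT_117487 and EMIHUDRAFT_462563. EMIHUDRAFT_453035 had 372, 342, 310 and 377 CPM under HHQ 10 at 72 h, against 439, 678, 517 and 603 CPM under HHQ 1. At 24 h it had 127, 130, 179 and 199 CPM under HHQ 10, against 448, 583, 627 and 679 CPM under HHQ 1. HHQ 10 lay below HHQ 1 without overlap at both times, further at 24 h, and the log2 difference between the times was 1.20 ± 0.30 (adjusted p = 0.030, edgeR). EMIHUDRAFT_462563 had 73.6, 87.5, 54.2 and 69.8 CPM under HHQ 10 at 72 h and 75.6, 73.7, 69.4 and 71.2 CPM under HHQ 1. At 24 h it had 20.4, 14.8, 19.8 and 35.2 CPM against 46.8, 95.3, 71.9 and 93.5 CPM, so the groups were apart at 24 h and overlapped at 72 h (1.75 ± 0.44, adjusted p = 0.029, edgeR). EMIHUDRAFT_370274 had 18.1, 17.2, 16.1 and 16.5 CPM under HHQ 10 at 72 h against 20.7, 22.3, 24.6 and 23.7 CPM under HHQ 1, and at 24 h 10.2, 5.4, 8.16 and 8.88 CPM against 22.6, 33.5, 31.7 and 30.1 CPM (1.43 ± 0.30, adjusted p = 0.0068, edgeR). It was the only one of the 6 whose call held without each library in turn, although it was not called with library totals as the scale.

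The opposite case was EMIHUDRAFT_437576, with 19.4, 20.4, 11.1 and 13.9 CPM under HHQ 10 at 72 h against 3.76, 1.45, 3.15 and 3.50 CPM under HHQ 1. Its excess was smaller than at 24 h, by a log2 difference of -2.31 ± 0.59 (adjusted p = 0.035, edgeR).

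**Figure D3:**
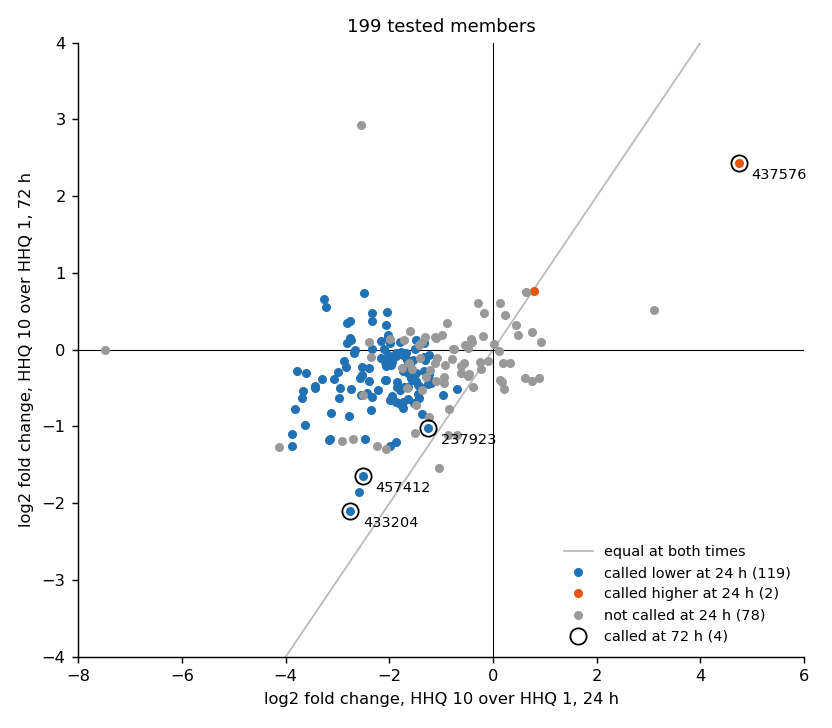
Log2 fold change of HHQ 10 over HHQ 1 at 72 h (vertical) against that at 24 h (horizontal) for the 199 tested members; colours give the call at 24 h, circles the 4 members called at 72 h, and the grey line equal values. The members' medians are -1.69 at 24 h and -0.25 at 72 h.

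The rule fixed low levels at both times for 100 ng/ml, so the 2 times were compared at the lower doses alone. EMIHUDRAFT_370423 averaged 17242 ± 3333 CPM under HHQ 10 at 72 h and 8407 ± 1712 CPM at 24 h (SD, n = 4 each), where HHQ 1 cultures had 21353 ± 4013 and 23670 ± 5545 CPM. EMIHUDRAFT_433204 averaged 53.8 ± 2.9 CPM under HHQ 10 at 72 h and 4.05 ± 0.98 CPM at 24 h, where HHQ 1 cultures had 231 ± 82 and 27.4 ± 8.1 CPM.

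**Figure D4:**
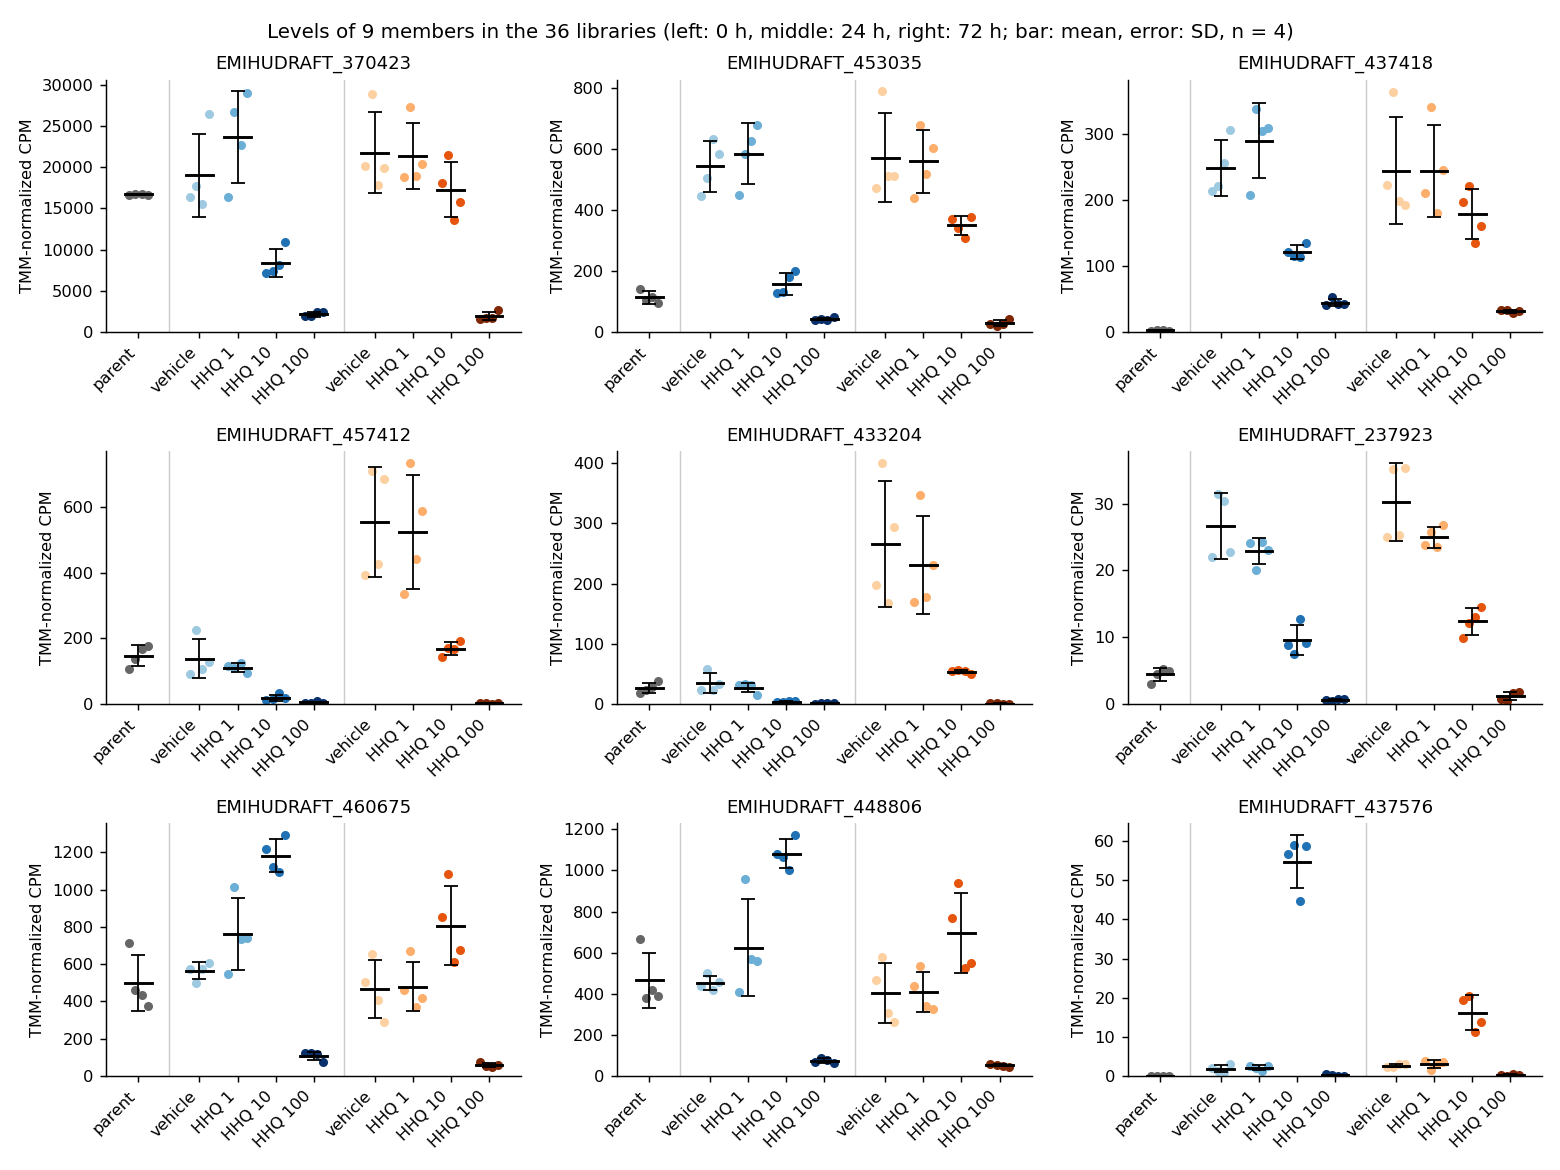
TMM-normalized CPM of 9 members in every library, by group; points are libraries, bars the mean and error bars the SD of 4. The upper row shows members lower under HHQ 10 at 24 h, the middle row the 3 members lower at both times, and the lower row 3 members at their highest mean under HHQ 10 at 24 h.

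In the comparison with the parent cultures members differed in both directions. Under HHQ 1 at 24 h 34 of 199 were higher than in the parent cultures and 5 lower (adjusted p under 0.05, edgeR), where 12.1% and 12.5% of all tested genes were. The median log2 fold change was 0.74, against 0.01 for all genes. In 29 members all 4 HHQ 1 libraries lay above all 4 parent libraries, against 12% of all genes, and in 30 all lay below, against 13.5%. Scaled by library totals, 16 were higher and 14 lower, and the members' median was only 0.14. The median of all genes was then -0.59, and 3.83% of all genes were higher and 22.6% lower. With the library component described above, taken from these same libraries, as a covariate, 101 were higher and 13 lower, against 23.2% and 18.6% of all genes. Without parent replicates 2, 3 and 4, 19, 22 and 20 were higher, and the shares of all genes in those fits are not given here. Parent replicate 1 stood apart from the other parent libraries on the component described above.

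Members with the steepest difference from the parent cultures were close to absent there. EMIHUDRAFT_437418 had 208, 337, 304 and 308 CPM under HHQ 1 at 24 h, against 2.06, 3.14, 2.98 and 2.41 CPM in parent cultures. The groups lay far apart, with a log2 fold change of 6.77 ± 0.27 (adjusted p = 2.0e-18, edgeR). Vehicle cultures at 24 h had 213, 221, 255 and 306 CPM, HHQ 10 cultures 122, 115, 113 and 135 CPM, and HHQ 100 cultures 41.2, 53.2, 42.0 and 42.6 CPM, so even the highest dose stayed well above the parent level. EMIHUDRAFT_52960 had 222 counts over the 4 HHQ 1 libraries and 0 over the parent libraries, at least 94.9-fold higher with a floor of 3 counts over the group. Of these counts 140 were in replicate 1 of HHQ 1, and without it the bound was 47.3-fold. EMIHUDRAFT_437576 had 100 counts and 0, at least 42.8-fold higher.

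EMIHUDRAFT_453035 had 448, 583, 627 and 679 CPM under HHQ 1 at 24 h, against 141, 106, 114 and 94.2 CPM in parent cultures (2.36 ± 0.22, adjusted p = 6.9e-10, edgeR). Its level under HHQ 10 at 24 h, 127 to 199 CPM, was near that of the parent cultures, and under HHQ 100 it was 41.2 to 48.6 CPM. EMIHUDRAFT_237923 had 24.2, 20.1, 24.3 and 23 CPM under HHQ 1 at 24 h and 3.05, 4.55, 5.24 and 4.93 CPM in parent cultures (2.36 ± 0.25, adjusted p = 6.9e-09, edgeR). In the other direction, EMIHUDRAFT_117747 had 4.27, 3.63, 7.31 and 6.83 CPM under HHQ 1 at 24 h, against 32.6, 34, 36.7 and 31.5 CPM in parent cultures (-2.61 ± 0.36, adjusted p = 1.2e-06, edgeR). EMIHUDRAFT_213165, EMIHUDRAFT_358281, EMIHUDRAFT_369496 and EMIHUDRAFT_207722 were the other lower members. Leaving out single libraries ended the calls of EMIHUDRAFT_213165, EMIHUDRAFT_369496 and EMIHUDRAFT_207722 and not those of EMIHUDRAFT_117747 and EMIHUDRAFT_358281.

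**Figure D5:**
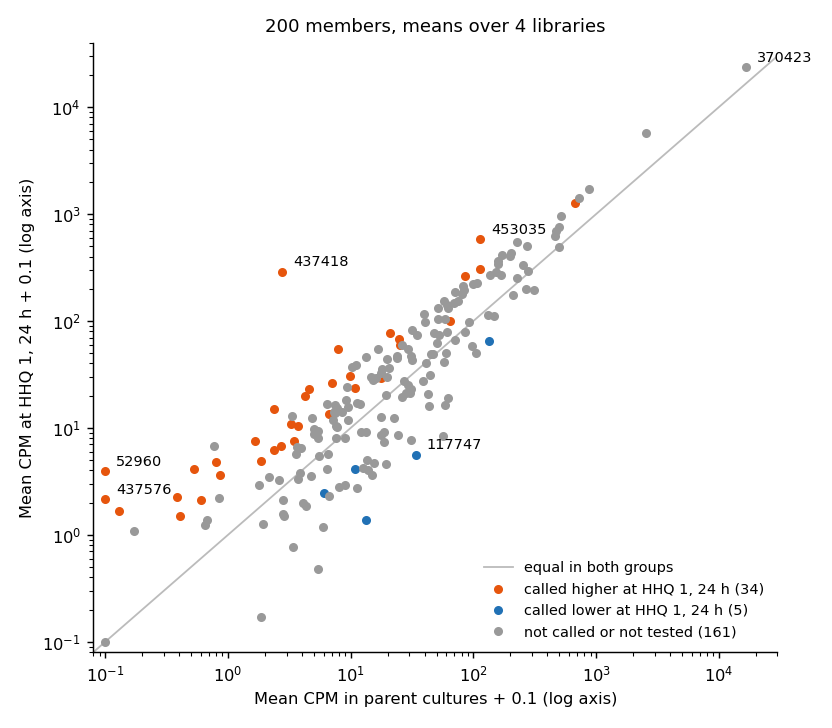
Mean CPM plus 0.1 of the 200 members under HHQ 1 at 24 h (vertical) against the parent cultures (horizontal), both on log axes and each over 4 libraries; colours give the call and the grey line equal means. The 34 higher members include EMIHUDRAFT_437418, at 289 CPM against 2.65 CPM.

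Between the 2 times under HHQ 1, 8 members were higher at 72 h than at 24 h and 0 were lower (adjusted p under 0.05, edgeR). Of all tested genes 2.85% were higher and 2.36% lower, so the share of members, 4.02% higher, was near the background. At an unadjusted p under 0.05 (edgeR) there were 45 members, and nothing is drawn from them, since the share of all genes there is not given. By DESeq2 17 members were higher and 1 lower, with 3.46% and 4.57% of all genes. With DESeq2's size factors 8 members were again higher and 0 lower, with 2.41% and 3.27% of all genes. EMIHUDRAFT_358281 had 10.0, 7.97, 13.2 and 8.37 CPM at 72 h, against 3.1, 3.75, 4.36 and 4.76 CPM at 24 h, without overlap (1.31 ± 0.23, adjusted p = 0.00059, edgeR). It was also lower under HHQ 1 at 24 h, the same libraries, than in the parent cultures, which had 10.7, 11.7, 11.7 and 8.86 CPM. EMIHUDRAFT_369496 showed the same course, with 4.72 to 8.33 CPM in the parent cultures, and under HHQ 1 1.87 to 3.39 CPM at 24 h and 5.51 to 15.8 CPM at 72 h. EMIHUDRAFT_448936, EMIHUDRAFT_471609, EMIHUDRAFT_122302 and EMIHUDRAFT_434553 were the other members higher at 72 h, besides EMIHUDRAFT_457412 and EMIHUDRAFT_433204 above. Leaving out single libraries ended the calls of EMIHUDRAFT_471609 and EMIHUDRAFT_122302.

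Named genes were kept out by the rule, but 14 of the 778 genes with a symbol had a score at or below that of the last member, or 1.80% against 0.549% of the identifiers. Of these 14, 12 were among the 85 Lhcf genes of the light-harvesting antenna, which is 14.1% of that family, and the other 693 genes with a symbol held 2, or 0.289%. Those 2 were PTA1 and PKS3. These shares rest on the libraries of the selection, and that of the identifiers was fixed by the rule, so they are a description only. With 0.5 added to the group means, a gene near 0 CPM with vehicle could not reach the score. For HHQ 10 against HHQ 1 at 24 h, 48 of 78 tested Lhcf genes were lower and 3 higher, and the median over the 78 was -1.10. At 72 h 0 were called either way, with 0.17% and 0.483% of all genes called, and the median was -0.15. PTA1 had a log2 fold change of -3.06 ± 0.41 and PKS3 of -1.15 ± 0.23 at 24 h (adjusted p = 2.1e-06 and 0.00054, edgeR). Against the parent cultures 63 of the 78 Lhcf genes were higher under HHQ 1 at 24 h and 0 lower, where the members had 34 and 5 of 199.

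Other lists of named genes were shorter, and none of their genes reached the score. They are set here beside the 11% of all tested genes that were lower and the 14.4% that were higher. For HHQ 10 against HHQ 1 at 24 h the 3 photosystem genes PSAE, PSBO-1 and PSBO_2 were all lower. Of 13 tested ammonium transporter genes 2 were lower and 0 higher, of 13 glycolysis genes 5 were lower and 2 higher, and of 8 isoprenoid pathway genes 2 were lower and 1 higher. Of 7 tested genes for carbonic anhydrase, bicarbonate transport and the coccolith protein GPA, or with a symbol that begins alike, 1 was lower. At 72 h 0 genes of these lists were called.

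The RefSeq gene table of the species gives the order of genes along the scaffolds, although the build behind the counts is not given in the sources used here. Consecutive genes of that order were taken as neighbours where the start position rose. Whether both lay on the same scaffold or strand was not checked. Of the 200 members 14, or 7.0%, stood next to another member, in 7 pairs, while 362 of 38349 other genes of the table, or 0.944%, stood next to a member. EMIHUDRAFT_217295 and EMIHUDRAFT_453035 were such a pair, both with whole counts in all libraries. EMIHUDRAFT_217295 had 3.75, 4.09, 5.45 and 6.38 CPM under HHQ 10 at 24 h, against 14.8, 14.3, 13.1 and 17.1 CPM under HHQ 1, and 1.31, 2.23, 2.70 and 2.75 CPM in parent cultures. Its log2 fold changes, -1.59 for HHQ 10 over HHQ 1 at 24 h and 2.71 for HHQ 1 at 24 h over parent, were close to those of its neighbour, -1.88 and 2.36, and both are among the 5 members whose difference between the times was called. EMIHUDRAFT_237922, next to EMIHUDRAFT_237923, also had like fold changes, -0.86 and 1.76 against -1.26 and 2.36. The listed spans of EMIHUDRAFT_432708 and EMIHUDRAFT_448259 overlap, so their counts may share reads if both lie on the same scaffold. The pair of EMIHUDRAFT_438891 and EMIHUDRAFT_68881 was not lower under HHQ 10 at 24 h (0.19 and 0.45, neither called).

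Of the 8 members beside a gene with a symbol, EMIHUDRAFT_432205 lay next to Lhcf11, EMIHUDRAFT_445912 next to Lhcf59 and EMIHUDRAFT_68881 next to Lhcf35. For HHQ 10 over HHQ 1 at 24 h these members had log2 fold changes of -2.08, -2.21 and 0.45, and their neighbours -1.37, -1.39 and -1.45, so the last pair had opposite signs. EMIHUDRAFT_227293 lay next to PKS8, with log2 fold changes of -3.69 for the member and 0.24 for PKS8, which was not called.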

How the data were processed

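Members and gene lists were chosen with earlier results of these data known. RNA came from 36 axenic cultures, 4 per group, in strand-specific libraries of mRNA caught on capture beads, per the labels' protocols. Trimmomatic 0.38 and Salmon 0.12.0 are named in the submitters' processing notes. The authors deposited estimated counts per gene, not normalized. The sources used here name no transcript set, build or software settings. Estimated counts were rounded for testing.

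Genes were filtered with filterByExpr, which kept 26494, scaled by TMM and tested with edgeR 4.0.16 in R 4.3.3. The quasi-likelihood F tests were two-sided, with 1 model of 9 group means for the 36 libraries. Benjamini-Hochberg adjustment was made over the genes of each comparison, and a gene was called under 0.05. The procedure was checked on simulated counts for HHQ 10 against HHQ 1 at 24 h. It recovered 32% of the genes set to differ 2-fold and 82% of those set to differ 4-fold, with 4 false calls. Most genes that differed 2-fold were thus missed there. The simulated counts were drawn independently and lacked the library component of the real libraries, so the false calls do not measure the error in these data. The SE was derived from the fold change and its F statistic.

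Alternatives were library totals, DESeq2 1.42.0 and its size factors, no filter, only the 20 libraries outside the selection, a replicate block and leaving out each library. The test between times, the values within sets of libraries and the library component as a covariate were added after the data were seen. Same-numbered HHQ 10 and HHQ 1 libraries correlated by 0.214 to 0.422 at 72 h in their deviations from the group means, so the numbers were taken as pairs there. At 24 h the correlations were -0.0668 to 0.306, and no pairing was taken.

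The named members were the 6 with the lowest score, the 6 with the most counts, the 5 with the lowest and the 5 with the highest fold change of HHQ 10 over HHQ 1 at 24 h and the last 2 inside the limit, 24 in all. Others were named after their values were seen. Matching of similar proteins, promoters and lengths was not done, since the reference used here holds gene names and order only.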

Additional observations from a re-analysis of the deposited data

Results flagged for a closer look

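The response to HHQ 10 relative to HHQ 1 differed between the times in 6 members (interaction term, adjusted p under 0.05, edgeR). The log2 difference, 72 h minus 24 h, was 1.20 for EMIHUDRAFT_453035, 1.24 for EMIHUDRAFT_217295, 1.43 for EMIHUDRAFT_370274, 3.93 for EMIHUDRAFT_117487, 1.75 for EMIHUDRAFT_462563 and -2.31 for EMIHUDRAFT_437576. EMIHUDRAFT_117487 had 8.52, 17.4, 1.73 and 2.27 CPM under HHQ 10 at 72 h against 5.16, 11.2, 1.37 and 0.832 CPM under HHQ 1, and at 24 h 1.21, 1.40, 1.05 and 3.47 CPM against 3.91, 23.9, 15.8 and 22.1 CPM.

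Single libraries stood far from the other 3 of their group in 43 of 216 groups of values of the named members. The cutoff marks about 1 in 20 groups of independent, normally distributed values. Many members share the library component and some groups hold 3 zeros, so the 43 cannot be set against that rate. Parent replicate 1 did so in 9 members, being the highest each time. It had 18.6 CPM of EMIHUDRAFT_450617, 234 of EMIHUDRAFT_442587, 4157 of EMIHUDRAFT_440685, 1594 of EMIHUDRAFT_434878 and 1314 of EMIHUDRAFT_438766. It also had 2.20 CPM of EMIHUDRAFT_209227, 241 of EMIHUDRAFT_446809, 666 of EMIHUDRAFT_448806 and 1017 of EMIHUDRAFT_435847.

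Replicate 4 of HHQ 10 at 24 h was the highest of its group in 6 members, with 7.78 CPM of EMIHUDRAFT_450617, 77.5 of EMIHUDRAFT_442587, 3111 of EMIHUDRAFT_440685, 849 of EMIHUDRAFT_434878, 665 of EMIHUDRAFT_438766 and 0.934 of EMIHUDRAFT_446351. Replicate 3 there had the lowest value of EMIHUDRAFT_437576, 44.8 CPM. Replicate 4 of the vehicle at 24 h was the highest with 308 CPM of EMIHUDRAFT_442587, 5510.0 of EMIHUDRAFT_440685, 6.30 of EMIHUDRAFT_459378, 6.27 of EMIHUDRAFT_446351 and 855 of EMIHUDRAFT_435847, and the lowest with 13.3 CPM of EMIHUDRAFT_439944. Replicate 3 of the vehicle at 24 h had the highest values of EMIHUDRAFT_209227 (3.86 CPM), EMIHUDRAFT_444611 (3.73 CPM) and EMIHUDRAFT_437539 (64.3 CPM). Replicate 2 of HHQ 1 at 24 h alone held EMIHUDRAFT_209227, at 4.55 CPM.

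Under HHQ 100 at 24 h replicate 4 had 154 CPM of EMIHUDRAFT_438766 and 0.0596 of EMIHUDRAFT_459378, the highest, and 74.5 CPM of EMIHUDRAFT_460675, the lowest. Replicate 3 there was the highest with 0.333 CPM of EMIHUDRAFT_227293, 8.22 of EMIHUDRAFT_457412 and 0.0907 of EMIHUDRAFT_446351. Under HHQ 100 at 72 h replicate 1 had 10.5 CPM of EMIHUDRAFT_446809, replicate 2 had 1.61 CPM of EMIHUDRAFT_450617 and 27.1 of EMIHUDRAFT_442587, and replicate 4 had 2705 CPM of EMIHUDRAFT_370423 and 34.7 of EMIHUDRAFT_439944, each the highest.

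In the other groups at 72 h, replicate 2 of HHQ 10 alone held EMIHUDRAFT_446809, at 56.0 CPM. Among HHQ 1 libraries replicate 2 was the highest with 27.7 CPM of EMIHUDRAFT_227293 and replicate 3 with 118 CPM of EMIHUDRAFT_439944. Replicate 2 of the vehicle had 35.4 CPM of EMIHUDRAFT_227293, and alone held EMIHUDRAFT_209227 (8.04 CPM) and EMIHUDRAFT_446809 (356 CPM).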

How the results depend on the processing

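With CPM scaled by TMM the rule chose 166 of the same 200 genes, and with 5 CPM added to the group means 120. For HHQ 10 against HHQ 1 at 24 h, leaving out single libraries gave 67 to 129 lower members and 1 to 3 higher. At 72 h the lower members were 5 by DESeq2, 10 with the library component as a covariate, 1 with library totals and 8 with the replicate block, and the higher ones 3, 3 and 2 with the covariate, library totals and the block; leaving out libraries gave 1 to 3 lower and 1 higher. Of all genes 0.514% were lower by DESeq2, and 0.962% were lower and 1.16% higher with the covariate. Between the times 95 members were higher with the covariate, where 10.8% of all genes were higher and 8.04% lower. With the replicate block, which also blocks the 24 h libraries that were not taken as pairs, 95 were higher, against 7.94% of all genes higher and 5.72% lower. With library totals 2 were higher (0.0717% of all genes) and with the 20 libraries 3 (0.304%), and without single libraries 1 to 15 were higher and 0 to 1 lower. For HHQ 1 at 24 h against parent, 101 were higher and 13 lower with the covariate, against 23.2% and 18.6% of all genes, and 16 and 14 with library totals; leaving out libraries gave 19 to 39 and 2 to 5. For HHQ 1 at 72 h against 24 h, 17 were higher and 1 lower by DESeq2 (3.46% and 4.57% of all genes), 23 and 25 with the covariate (7.93% and 6.25%), 13 higher with the block (3.3%), and 1 lower with library totals (1.52%); leaving out libraries gave 6 to 10 higher and 0 to 1 lower. The covariate averages 0 in each group by construction, so it removes spread within groups and no difference between them. It was taken from the same libraries that were then tested, so the counts with it may be too high. The cause of the other changes was not tested. Shares of all genes are not given for the fits that left out a library, so their counts are not read as traits of the members. No named member reversed under any of these settings. At 24 h the replicate block, where the numbers were not taken as pairs, gave 147 lower and 3 higher, against 19.6% and 19.4% of all genes. Members under HHQ 100 often had too few counts to measure how far below 1 CPM they were.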
